A study of Mus musculus with 6 samples.

Results

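The 43 genes described here encode neuropeptide precursors and neuropeptide receptors of the mouse, without the opioid peptides. They were chosen by symbol, with no filter on expression, from the 52513 genes of a table of lumbar spinal cord, and all 43 were found in it. Of these, 19 are peptide precursors, and the other 24 are receptors together with Ramp1, an accessory protein of the CGRP receptor. The cord segments were L4 and L5 of WT mice that received morphine or saline intrathecally, that is into the fluid around the cord, for 7 days. The morphine dose was 10 µg in 10 µL, and there were 3 morphine and 3 saline libraries of total RNA made with a stranded kit. The labels used here state no strain, age or sex. The sample descriptions carry runs of numbers, and whether a library pools several mice is not stated, so the p-values measure the spread between these libraries. By its series title the study is about morphine tolerance, the loss of pain relief on repeated dosing.

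Neuropeptides are cut from longer precursor proteins in the secretory pathway, stored in dense-core vesicles and released to act on receptors that mostly couple to G proteins. In the dorsal horn of the spinal cord, sets of small excitatory and inhibitory interneurons are told apart by the peptide they make, and sensory neurons of the dorsal root ganglia add peptides from their central terminals. Substance P and CGRP are known for carrying pain signals there, gastrin-releasing peptide for itch, and somatostatin, galanin and neuropeptide Y mostly for inhibitory actions. Cholecystokinin and neuropeptide FF are known as modulators of opioid pain relief. The precursor RNA is read mostly from cells inside the cord, whereas receptors can also be on glia and blood vessels.

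Several neuropeptide genes are textbook targets of cyclic AMP signalling through the cAMP response element, the palindrome TGACGTCA, so the stretch before the start of each gene was read for it. Starts and promoter sequences came from RefSeq on build GRCm38.p6, where 37 of the 43 genes matched. The others, Grp, Sstr1, Npb, Npff, Crh and Galr1, are named only. Among 250 bases upstream of the start, on either strand, 4 of the 37 held the full element, against 508 of all 32851 promoter windows (1.55%). These 4 were Cartpt, Sst, Sstr2 and Ucn. They are shown because they include the one gene whose RNA passed the test below and the most abundant precursor. Each line gives 30 bases of the gene's own strand, 5′ to 3′, with the element in capitals.
Cartpt, chr13:99900777-99900806, minus strand: ccggcgggcatTGACGTCAaacggcagcgg
Sst, chr16:23890874-23890903, minus strand: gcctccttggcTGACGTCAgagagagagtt
Sstr2, chr11:113619258-113619287, plus strand: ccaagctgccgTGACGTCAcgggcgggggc
Ucn, chr5:31138921-31138950, minus strand: atgttcttcgcTGACGTCAgtcggagctgt
The first base of the element lay 112 bases upstream of the start in Cartpt, 48 in Sst, 58 in Sstr2 and 44 in Ucn. Around the element the 4 stretches have few bases in common. In GENCODE M21, whose outer start for Cartpt lies further upstream than that of RefSeq, all 250 bases of the Cartpt window are exonic, and 114 of the 250 are in Sst.

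The shorter element TGACG, which also counts each full element, was in the windows of 18 of the 37 genes, against 17.8% of all windows. Cck and Tac2, the most abundant precursors after Sst, are shown whole for contrast, because neither holds the full element and none of their bases is exonic in GENCODE. Cck holds the shorter element at 1 place, printed in capitals as its reverse complement CGTCA, and Tac2 holds none.
Cck, chr9:121495695-121495944, minus strand: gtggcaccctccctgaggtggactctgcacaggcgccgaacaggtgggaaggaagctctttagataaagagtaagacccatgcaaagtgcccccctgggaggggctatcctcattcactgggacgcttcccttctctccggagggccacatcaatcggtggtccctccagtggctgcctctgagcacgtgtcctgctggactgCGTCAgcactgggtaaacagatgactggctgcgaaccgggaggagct
Tac2, chr10:127724228-127724477, plus strand: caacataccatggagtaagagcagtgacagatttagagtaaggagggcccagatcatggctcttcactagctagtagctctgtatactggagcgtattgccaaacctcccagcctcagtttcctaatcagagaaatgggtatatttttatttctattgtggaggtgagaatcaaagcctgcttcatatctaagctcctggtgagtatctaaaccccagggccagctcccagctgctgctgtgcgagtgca
A match describes these letters, and binding of a factor was not measured.

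Levels are in FPKM, fragments scaled to the kilobases of the transcript and to the mapped fragments of the library. The depth, estimated from the steps between low FPKM values, came to 19.6, 17.6 and 18.3 M fragments in morphine 1, 2 and 3, and to 21.3, 25.7 and 21.1 M in saline 1, 2 and 3. The columns summed to 720234 to 741145 FPKM in morphine and 662470 to 670280 FPKM in saline, and they were compared as deposited. Markers of motor and cholinergic neurons differed between libraries of the same group. Their summed level was 163, 260 and 135 FPKM in morphine 1, 2 and 3, against 280, 260 and 143 FPKM in saline 1, 2 and 3. Ache, at 99.4 to 103 FPKM in every library, was the largest part of each sum. The other markers together therefore spread further than the sums show. In tissue RNA, fewer cells of a type and less RNA per cell cannot be told apart.

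The peptide precursors were the more abundant members. Their means over the 6 libraries had a median of 14.2 FPKM, against 2.37 FPKM for the receptors with Ramp1, and 11 of 19 precursors but 3 of 24 receptor genes averaged over 10 FPKM. Sst stood highest at 422 FPKM, followed by Cck at 162 FPKM, Ntsr2 at 143 FPKM, Tac2 at 64.2 FPKM, Npy at 63.7 FPKM and Tac1 at 62.1 FPKM. The last 3 differ by less than the spread of any of them between libraries. At the other end were Npffr2 at 0.0883 FPKM, Rln3 at 0.107 FPKM and Grpr at 0.13 FPKM. In all 6 libraries, 32 of the 43 members reached 1 FPKM.

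**Figure D1:**
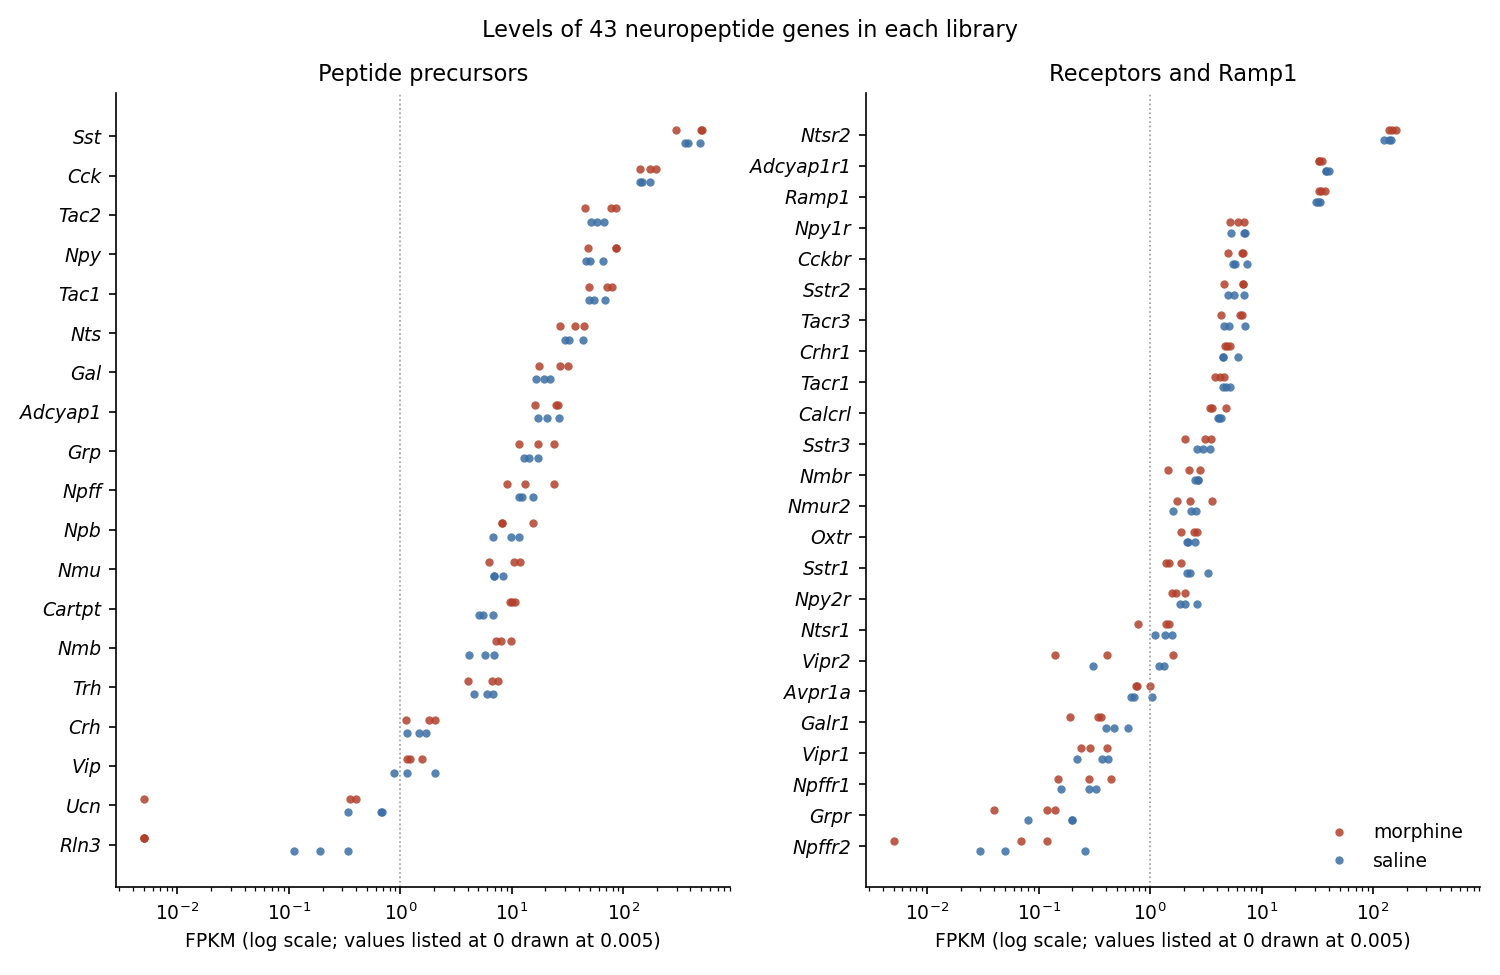
FPKM of the 43 genes in each library on a log axis, precursors on the left and receptors with Ramp1 on the right, ordered by mean level, with morphine above saline in each row and a dotted line at 1 FPKM. Values listed at 0 are drawn at 0.005. Sst stands highest among the precursors at a mean of 422 FPKM and Ntsr2 among the receptors at 143 FPKM, while Vipr2 spreads 11.4-fold between its highest and lowest library.

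Morphine was compared with saline over all genes that reached 1 FPKM in 3 or more libraries, using limma, a linear model with variances moderated across genes, on log2(FPKM + 1). On that scale the change of a low gene is understated. Of 14614 tested genes, 138 (0.944%) were called higher and 82 (0.561%) lower at an adjusted p under 0.05. Among the 35 members that passed the filter, 17 of 19 precursors and 18 of 24 receptor genes, 1 was called higher and none lower. That is 2.86% of the 35. An unadjusted limma p under 0.05 was reached by 4 of the 35 (11.4%), against 22.3% of all tested genes. The 3 morphine and 3 saline values did not overlap in 4 of the 35 (11.4%), against 28.7% of all tested genes, so both shares were below the background. The gene called was Cartpt.

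Cartpt encodes the precursor of the CART peptides, which were named for their induction by cocaine and amphetamine and are made by neurons of the dorsal horn and by sensory fibres. It was at 10.1, 9.66 and 10.7 FPKM in morphine 1, 2 and 3, against 5.07, 5.47 and 6.83 FPKM in saline 1, 2 and 3. Every morphine library was above every saline library. By the depth estimate these levels rest on about 203, 175 and 200 fragments in morphine and 110, 144 and 147 fragments in saline. Cartpt rose to 10.1 ± 0.497 FPKM in morphine, against 5.79 ± 0.923 FPKM in saline (SD, n = 3 each), a ratio of 1.75. The log2 fold change was 0.72 (SE 0.11, 95% interval 0.46 to 0.98, limma adjusted p = 0.0456). An exact permutation test, two-sided, gave p = 0.1, and no smaller value is possible with 3 libraries a group. The call rests near its threshold. Adjusted limma p-values were 0.0992 without the filter on low values and 0.0657 with the trend of fold change on gene length removed. Without any 1 library other than morphine 2 they lay between 0.0684 and 0.152, and the log2 fold change between 0.64 and 0.83. Cartpt lies at chr13:99898489-99901091 on the minus strand (GENCODE M21, GRCm38).

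**Figure D2:**
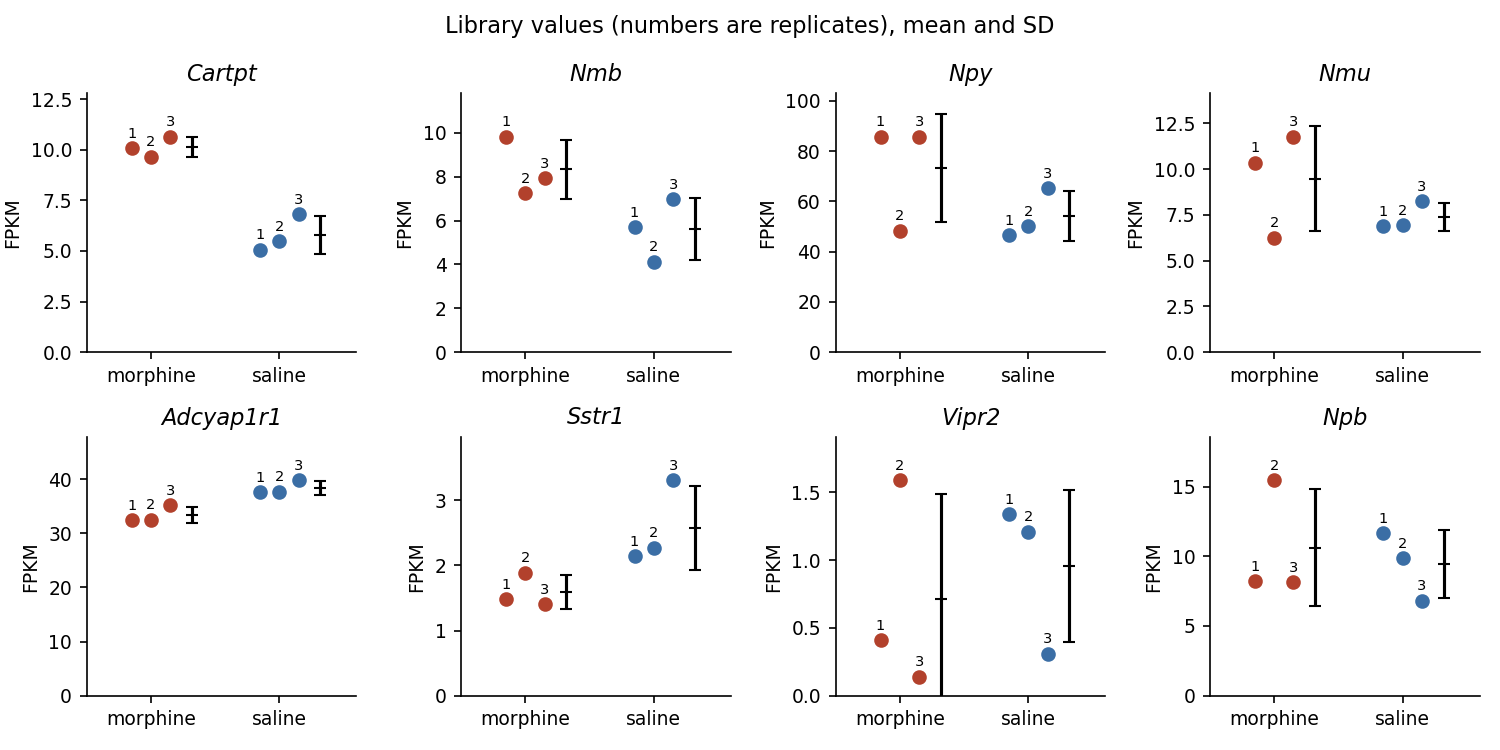
FPKM of 8 members in each library, morphine left of saline, with replicate numbers beside the points and bars for the mean ± SD (n = 3 each). The groups are apart in Cartpt, Nmb, Adcyap1r1 and Sstr1, while in Npy and Nmu morphine 2 sits among or below the saline libraries and Vipr2 and Npb are highest in morphine 2.

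Another 3 members had an unadjusted p under 0.05 and groups that did not overlap, and none of them passed the adjusted threshold. Nmb, which encodes neuromedin B, a bombesin-like peptide of sensory and itch circuits, was at 9.83, 7.26 and 7.92 FPKM in morphine, against 5.71, 4.13 and 6.97 FPKM in saline. Its log2 fold change was 0.51 (SE 0.18, limma adjusted p = 0.154). Exons of Nmb overlap those of Sec11a on the same strand, so its level is uncertain. Adcyap1r1, the receptor selective for PACAP, was at 32.5, 32.5 and 35.2 FPKM in morphine, against 37.6, 37.7 and 39.9 FPKM in saline. Its log2 fold change was -0.20 (SE 0.06, limma adjusted p = 0.121). With the columns rescaled to a common total (TPM), where the median of all tested genes was -0.13 and not -0.02, Adcyap1r1 was at -0.32 with an adjusted p of 0.0414. Sstr1, an inhibitory somatostatin receptor, was at 1.48, 1.89 and 1.40 FPKM in morphine, against 2.14, 2.27 and 3.31 FPKM in saline, and its log2 fold change was -0.45 (SE 0.15, limma adjusted p = 0.144). The exact permutation p was 0.1 for each of the 3.

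The tachykinin precursors were alike in the way their libraries were ordered. Tac1, the source of substance P and neurokinin A, was at 71.1, 49.0 and 79.6 FPKM in morphine, against 49.3, 54.8 and 69.1 FPKM in saline. Tac2, which in the mouse encodes neurokinin B, was at 77.3, 45.3 and 86.2 FPKM in morphine, against 51.7, 58.1 and 66.7 FPKM in saline. In both genes morphine 2 was the lowest of all 6 libraries and morphine 3 the highest, and the groups overlapped. The log2 fold change was 0.19 in each (limma adjusted p = 0.608 for Tac1 and 0.654 for Tac2). Tacr1, the substance P receptor of dorsal horn projection neurons, was at 4.60, 3.80 and 4.25 FPKM in morphine, against 4.77, 4.51 and 5.18 FPKM in saline (log2 fold change -0.16, limma adjusted p = 0.364). Tacr3, the neurokinin B receptor, was at 6.44, 4.33 and 6.72 FPKM in morphine, against 4.57, 5.14 and 7.05 FPKM in saline (log2 fold change 0.05, limma adjusted p = 0.896).

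Somatostatin, an inhibitory peptide made by dorsal horn excitatory interneurons, was the most abundant precursor RNA in every library. Sst was at 502, 299 and 509 FPKM in morphine, against 354, 380 and 486 FPKM in saline. Its group means were 437 ± 120 FPKM in morphine and 406 ± 69.7 FPKM in saline (SD, n = 3 each), a difference smaller than either SD (log2 fold change 0.08, 95% interval -0.44 to 0.59, limma adjusted p = 0.868). Its receptor Sstr2 was at 6.75, 4.63 and 6.84 FPKM in morphine, against 4.97, 5.67 and 6.91 FPKM in saline (log2 fold change 0.04, limma adjusted p = 0.906). Sst and Sstr2 ordered their libraries alike within each group, number 2 being lowest in morphine and number 3 highest in both. Sstr3 averaged 2.91 ± 0.756 FPKM in morphine and 3.03 ± 0.415 FPKM in saline. Cartpt had its lowest morphine value in library 2 as well, but that value was 9.66 FPKM and above every saline value.

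Npy and Gal had the next largest fold changes among the precursors after Cartpt and Nmb. Npy encodes neuropeptide Y, which in the dorsal horn marks inhibitory interneurons, and was at 85.8, 48.3 and 85.8 FPKM in morphine, against 46.7, 50.2 and 65.3 FPKM in saline. Morphine 1 and 3 lay above all saline libraries, and morphine 2 lay between saline 1 and saline 2. The log2 fold change was 0.40 (SE 0.24, limma adjusted p = 0.363). Without morphine 2 it was 0.67 with a limma adjusted p of 0.0493. That fit called 805 of 14614 genes, against 220 with all libraries, and Npy was called in no other setting. Npy1r, its postsynaptic receptor, was at 6.10, 5.21 and 6.97 FPKM in morphine, against 5.29, 6.91 and 7.17 FPKM in saline (log2 fold change -0.07, limma adjusted p = 0.795). Npy2r, the receptor found mostly on sensory terminals, averaged 1.76 ± 0.248 FPKM in morphine and 2.17 ± 0.402 FPKM in saline (log2 fold change -0.20, limma adjusted p = 0.415). Gal, the galanin precursor, was at 31.9, 17.5 and 27.0 FPKM in morphine, against 16.4, 19.4 and 22.0 FPKM in saline (log2 fold change 0.36, limma adjusted p = 0.367). Again morphine 2 was the morphine library within the saline range.

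Cholecystokinin, known as a peptide that opposes opioid pain relief, had no difference beyond the spread of its libraries. Cck was at 174, 142 and 197 FPKM in morphine, against 140, 147 and 172 FPKM in saline (log2 fold change 0.15, 95% interval -0.15 to 0.46, limma adjusted p = 0.528). Its brain-type receptor Cckbr was at 6.62, 4.99 and 6.79 FPKM in morphine, against 5.83, 5.55 and 7.41 FPKM in saline (log2 fold change -0.03, limma adjusted p = 0.928). Neuropeptide FF, the other peptide named above as a modulator of opioid pain relief, varied widely between morphine libraries. Npff was at 23.8, 9.05 and 13.1 FPKM in morphine, against 11.5, 12.4 and 15.6 FPKM in saline, so morphine 1 was the highest and morphine 2 the lowest of all 6. Its log2 fold change was 0.12 (SE 0.31, limma adjusted p = 0.852). Exons of Npff overlap Gm28047 on the same strand, so its level is uncertain. Both of its receptors were under the filter. Npffr1 averaged 0.293 FPKM in morphine and 0.257 FPKM in saline, on about 9 to 29 fragments a library. Npffr2 averaged 0.0633 FPKM in morphine and 0.113 FPKM in saline, on at most about 8 fragments a library.

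The itch peptide Grp was at 17.3, 11.7 and 24.1 FPKM in morphine, against 12.8, 14.1 and 17.2 FPKM in saline (log2 fold change 0.21, limma adjusted p = 0.644). Its receptor Grpr, which marks a small set of dorsal horn neurons, had between about 2 and 6 fragments per morphine library and between about 5 and 10 per saline library, and was under the filter. Nmbr, the neuromedin B receptor, averaged 2.15 ± 0.672 FPKM in morphine and 2.64 ± 0.0757 FPKM in saline (log2 fold change -0.23, limma adjusted p = 0.447). Its exons overlap B230364G03Rik on the other strand, and the labels do not state whether counting used strand. Nmu, which encodes neuromedin U, was at 10.4, 6.25 and 11.8 FPKM in morphine, against 6.89, 6.94 and 8.24 FPKM in saline (log2 fold change 0.29, limma adjusted p = 0.451). Morphine 2 was the lowest of the 6 and the other 2 morphine libraries the highest. Without morphine 2 the log2 fold change was 0.53 with a limma adjusted p of 0.0471. That is the fit that called 805 of 14614 genes, and Nmu was called in no other setting. Exons of Nmu overlap 4930432L08Rik on the other strand. Nmur2, the neuromedin U receptor of the nervous system, averaged 2.53 ± 0.95 FPKM in morphine and 2.17 ± 0.505 FPKM in saline (log2 fold change 0.13, limma adjusted p = 0.745).

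Neurotensin relieves pain in the cord through its receptors. Nts was at 36.9, 27.3 and 44.2 FPKM in morphine, against 30.1, 32.7 and 43.3 FPKM in saline (log2 fold change 0.02, limma adjusted p = 0.959). Ntsr2, the low-affinity neurotensin receptor that astrocytes also express, was the most abundant receptor of the list, at 139, 160 and 148 FPKM in morphine, against 140, 144 and 127 FPKM in saline (log2 fold change 0.12, limma adjusted p = 0.370). It did not share the library order of the precursors, since morphine 2 was its highest library and saline 3 its lowest. Ntsr1, the high-affinity receptor of neurons, averaged 1.21 ± 0.379 FPKM in morphine and 1.35 ± 0.23 FPKM in saline. Astrocyte markers summed to 1900, 2140 and 1890 FPKM in morphine, against 1970, 1910 and 1710 FPKM in saline, a sum carried mostly by Aldoc and Gfap. Their mean log2 level, which weights the 7 markers equally, was 6.88, 7.06 and 6.90 in morphine, against 7.06, 7.04 and 6.89 in saline. The sums were highest in morphine 2 and lowest in saline 3, as Ntsr2 was. The mean log2 levels were highest in morphine 2 and saline 1, at 7.06 in each. They were lowest in morphine 1 at 6.88, with saline 3 close by at 6.89. The part of these markers in the level of Ntsr2 was not tested.

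PACAP, the ligand of the Adcyap1r1 receptor above, is a peptide that raises cyclic AMP. Its precursor Adcyap1 was at 24.9, 16.2 and 26.0 FPKM in morphine, against 17.1, 20.6 and 26.6 FPKM in saline (log2 fold change 0.05, limma adjusted p = 0.905). The related Vip averaged 1.31 ± 0.227 FPKM in morphine and 1.35 ± 0.605 FPKM in saline. Vipr2, a receptor shared by VIP and PACAP, was the most variable tested member and the one with the fewest libraries at 1 FPKM, 3 of 6. It was at 0.41, 1.59 and 0.14 FPKM in morphine, against 1.34, 1.21 and 0.31 FPKM in saline (log2 fold change -0.23, SE 0.35, limma adjusted p = 0.729). As with the motor neuron markers, its level was high in morphine 2, saline 1 and saline 2 and low in the other 3. With these markers as a covariate its log2 fold change was 0.07 (limma adjusted p = 0.744). Vipr1 averaged 0.313 FPKM in morphine and 0.337 FPKM in saline and was under the filter.

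Among the remaining families no member passed the test. Trh, the precursor of thyrotropin-releasing hormone, was at 7.44, 4.02 and 6.69 FPKM in morphine, against 4.62, 5.98 and 6.81 FPKM in saline (log2 fold change 0.03, limma adjusted p = 0.948). Crh, the precursor of the stress hormone corticotropin-releasing hormone, averaged 1.66 ± 0.483 FPKM in morphine and 1.44 ± 0.272 FPKM in saline. Its receptor Crhr1 was at 4.94, 4.67 and 5.20 FPKM in morphine, against 4.54, 4.47 and 6.20 FPKM in saline (log2 fold change -0.02, limma adjusted p = 0.935). The CGRP receptor is made of Calcrl and Ramp1, of which Ramp1 was several times the more abundant. Calcrl was at 3.58, 4.80 and 3.41 FPKM in morphine, against 4.19, 4.33 and 4.05 FPKM in saline (log2 fold change -0.08, limma adjusted p = 0.716). Ramp1 was at 32.7, 36.7 and 34.2 FPKM in morphine, against 33.2, 32.4 and 31.0 FPKM in saline (log2 fold change 0.10, limma adjusted p = 0.418). In both subunits morphine 2 was the highest library, unlike in most precursors. Npb, which encodes neuropeptide B, was at 8.23, 15.5 and 8.13 FPKM in morphine, against 11.7, 9.85 and 6.80 FPKM in saline (log2 fold change 0.12, limma adjusted p = 0.816). It was the 1 tested precursor that was highest in morphine 2 among the morphine libraries, and like Vipr2 it was highest in the same 3 libraries as the motor neuron markers. Oxtr, the oxytocin receptor, averaged 2.33 ± 0.371 FPKM in morphine and 2.30 ± 0.22 FPKM in saline.

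The 8 members under the filter were Avpr1a, Ucn, Galr1, Vipr1, Npffr1, Grpr, Rln3 and Npffr2, and none was called in the same model fitted without the filter. Rln3, the relaxin-3 precursor known from the brainstem, was listed at 0 in each morphine library and at 0.11, 0.19 and 0.34 FPKM in saline. The saline values are about 1, 2 and 3 fragments, and 3 fragments are the floor used here, so no fold is given (limma adjusted p = 0.162). Ucn, the urocortin precursor, had about 2, 2 and 0 fragments in morphine, against 4, 5 and 2 in saline (limma adjusted p = 0.415). Galr1, an inhibitory galanin receptor, was at 0.34, 0.19 and 0.36 FPKM in morphine, against 0.47, 0.40 and 0.63 FPKM in saline, so its groups did not overlap (log2 fold change -0.21, limma adjusted p = 0.353). Avpr1a, the vasopressin receptor of brain and cord, averaged 0.837 ± 0.142 FPKM in morphine and 0.810 ± 0.192 FPKM in saline. At about 33 fragments or more in each library, Avpr1a was the best covered of the 8.

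**Figure D3:**
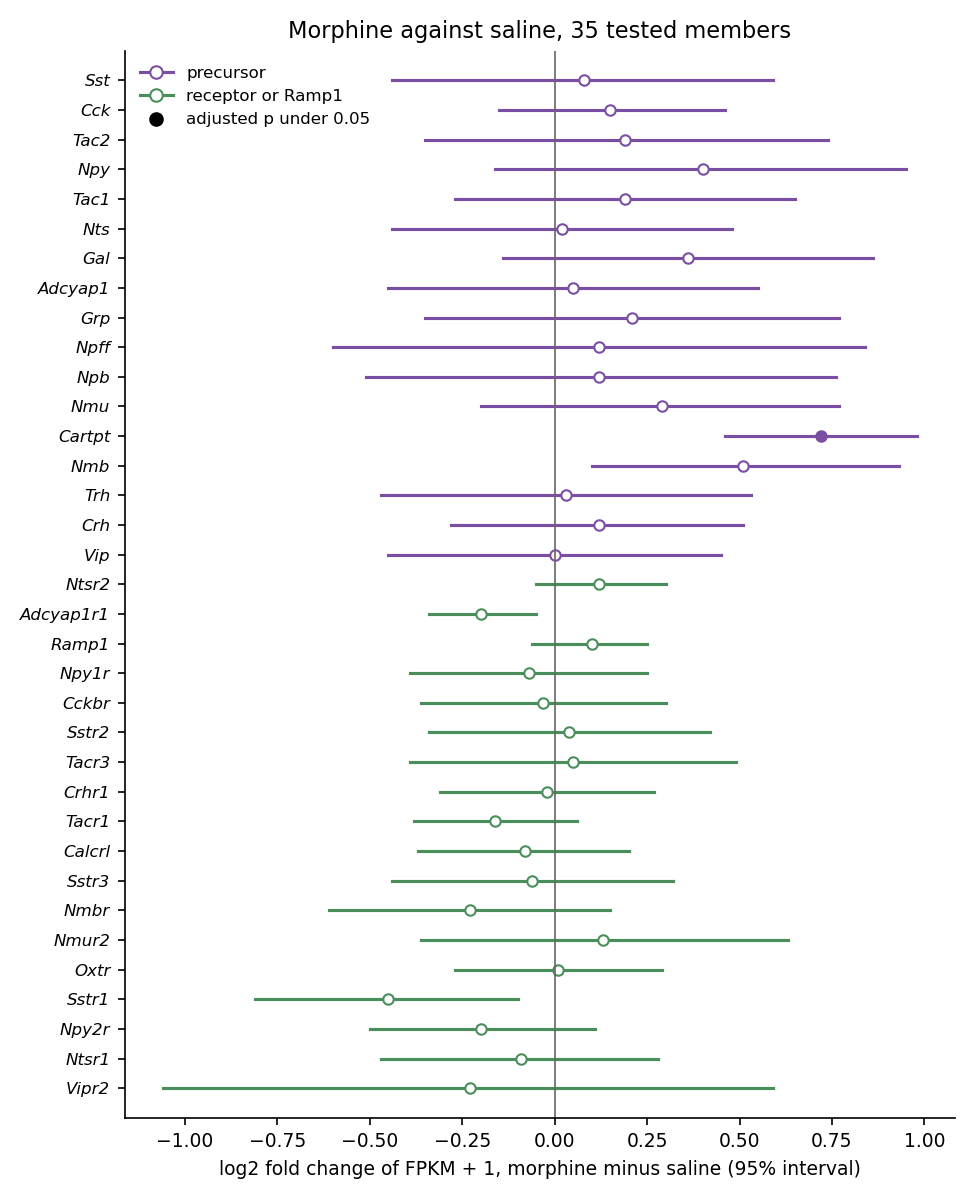
Log2 fold change of FPKM + 1, morphine minus saline, with limma 95% intervals for the 35 tested members, precursors above and receptors with Ramp1 below, each ordered by mean level. The filled point is Cartpt at 0.72; precursor points lie at or right of 0 and 12 of the 18 receptor points lie left of it.

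The 2 roles differed in the sign of their fold changes. All 17 tested precursors had a positive log2 fold change (Vip at 0.00 when rounded), with a median of 0.15, and 12 of the 18 tested receptor genes had a negative one, with a median of -0.07. The median was 0.05 over the 35 members and -0.02 over all tested genes, of which 6849 of 14614 were positive. Some of these signs turned with the scaling. With the columns rescaled to TPM 11 of 17 were positive, with a median of 0.04, and 17 of 18 receptor genes were negative. With the motor neuron list as a covariate 11 of 17 precursors were positive, with a median of 0.02, and Cartpt was at 0.65 with an adjusted p of 0.0307. Leaving out any 1 library left 11 to 16 of 17 precursors positive, with medians of 0.05 without morphine 3 and 0.39 without morphine 2.

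Precursor genes are short and receptor genes long, and fold changes in these libraries went with length. The exonic length of the tested precursors had a median of 1280 nt, against 3420 nt for the tested receptor genes. Across all tested genes log2 fold change and exonic length had a Spearman correlation of -0.31. Of the 1133 genes below 1000 nt, which include 6 of the precursors, 67.1% had a positive log2 fold change. The share was 72.7% of the 1691 genes of 1000 to 2000 nt, with 8 of the precursors, and 53.7% of the 4154 genes of 2000 to 4000 nt, with 3 precursors and 12 receptor genes. Among the 7610 longer genes, which include the other 6 receptor genes, it was 34.4%. With this trend removed 13 of 17 precursors were positive and 13 of 18 receptor genes negative, with medians of 0.06 and -0.05.

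**Figure D4:**
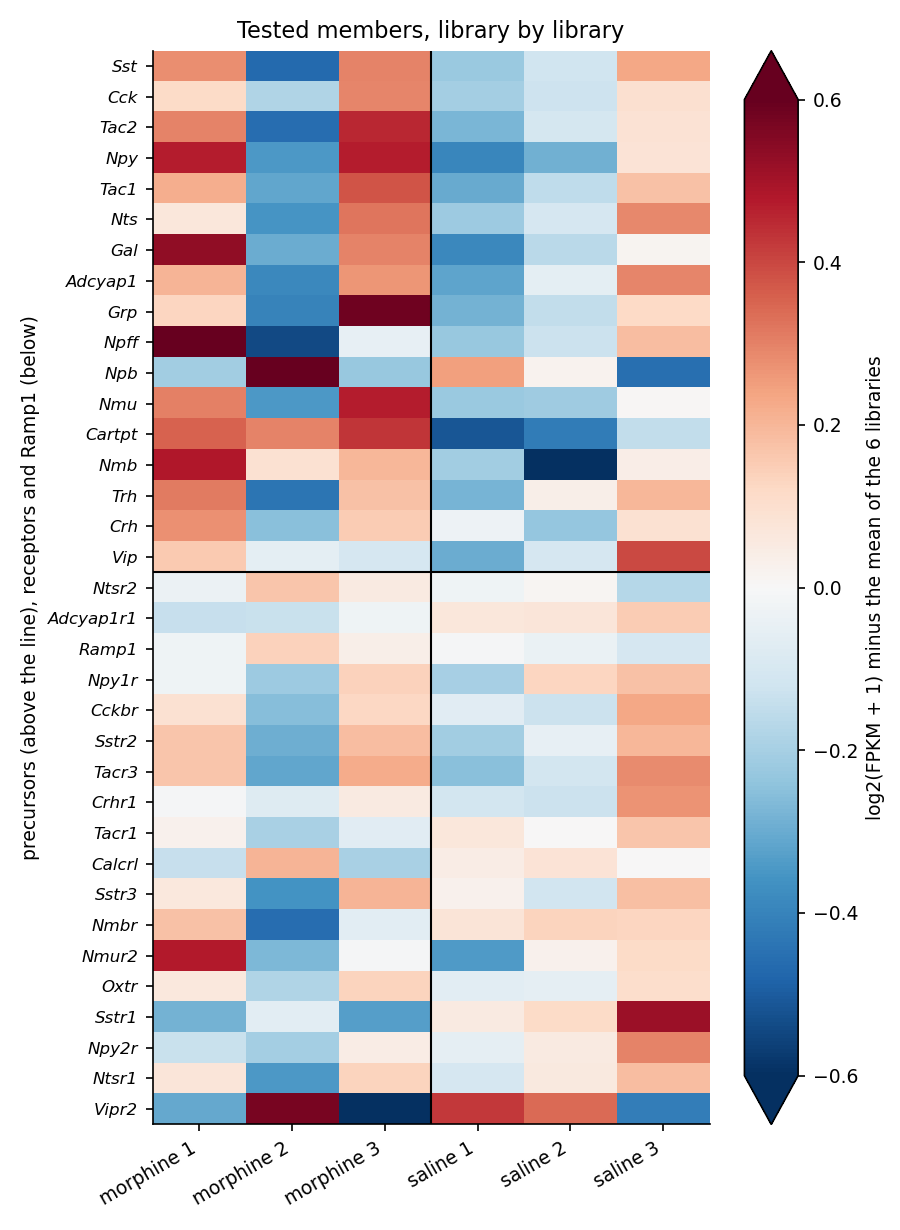
Log2(FPKM + 1) of the 35 tested members minus the gene's mean over the 6 libraries, morphine left of saline, precursors above the line and receptors with Ramp1 below it, colours capped at ±0.6. Most precursor rows are blue in morphine 2 and in saline 1 and red in saline 3; Cartpt and Nmb are red in all 3 morphine libraries, and Npb and Vipr2 run against the other rows.

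Within each group the precursors shared an order of libraries. Morphine 2 was the lowest morphine library in 15 of 17 tested precursors, against 43.5% of all tested genes. Saline 3 was the highest saline library in 16 of 17, against 46.6%, and saline 1 was the lowest in 14 of 17, against 36.2%. The tested receptor genes leaned the same way, so the order was not particular to the precursors. Morphine 2 was the lowest morphine library in 12 of these 18 (66.7%). Saline 3 was the highest saline library in 13 (72.2%) and saline 1 the lowest in 10 (55.6%). The genes share libraries, so these counts describe the libraries and not separate observations. Summed over the 19 precursors the level was 1100, 710 and 1140 FPKM in morphine 1, 2 and 3, against 766, 825 and 1020 FPKM in saline 1, 2 and 3. For the 24 receptor genes the sum stayed within 263 to 277 FPKM in morphine and 263 to 269 FPKM in saline, with Ntsr2 making up more than any other gene.

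Markers of dorsal excitatory neurons, among which many of these peptides are made, summed to 174, 136 and 188 FPKM in morphine, against 149, 157 and 197 FPKM in saline. These sums were lowest in morphine 2 and highest in saline 3. The mean log2 level, which weights the markers equally, was 3.76, 3.36 and 3.82 in morphine, against 3.44, 3.53 and 3.82 in saline. It was thus as high in morphine 3 as in saline 3. The precursor sums were also lowest in morphine 2, and highest in morphine 3. Inhibitory neuron markers summed to 276, 232 and 299 FPKM in morphine, against 284, 278 and 350 FPKM in saline. In these sums morphine 1, second highest in the precursor sums, was second lowest. The mean log2 level of the inhibitory markers was 3.85, 3.56 and 3.88 in morphine, against 3.73, 3.74 and 4.1 in saline. By that measure morphine 1 was above saline 1 and saline 2. The motor and cholinergic markers, given above, were lowest in morphine 3, where the precursor sum was highest. Oligodendrocyte markers were highest in morphine 2, where it was lowest, at 17900, 22400 and 16500 FPKM in morphine, against 20000, 21000 and 14400 FPKM in saline. Their part in the precursor levels was not tested beyond the covariate fit above. Markers of primary sensory neurons, whose cell bodies lie outside the cord, were mostly near 0, with 2 of 10 past the filter. Those 2 were Calca and Pou4f1, with means of 65.9 and 6.66 FPKM over the 6 libraries. Scn10a and Scn11a, the sodium channels that define pain-sensing fibres, were at 0.02 FPKM or less in all 6 libraries.

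**Figure D5:**
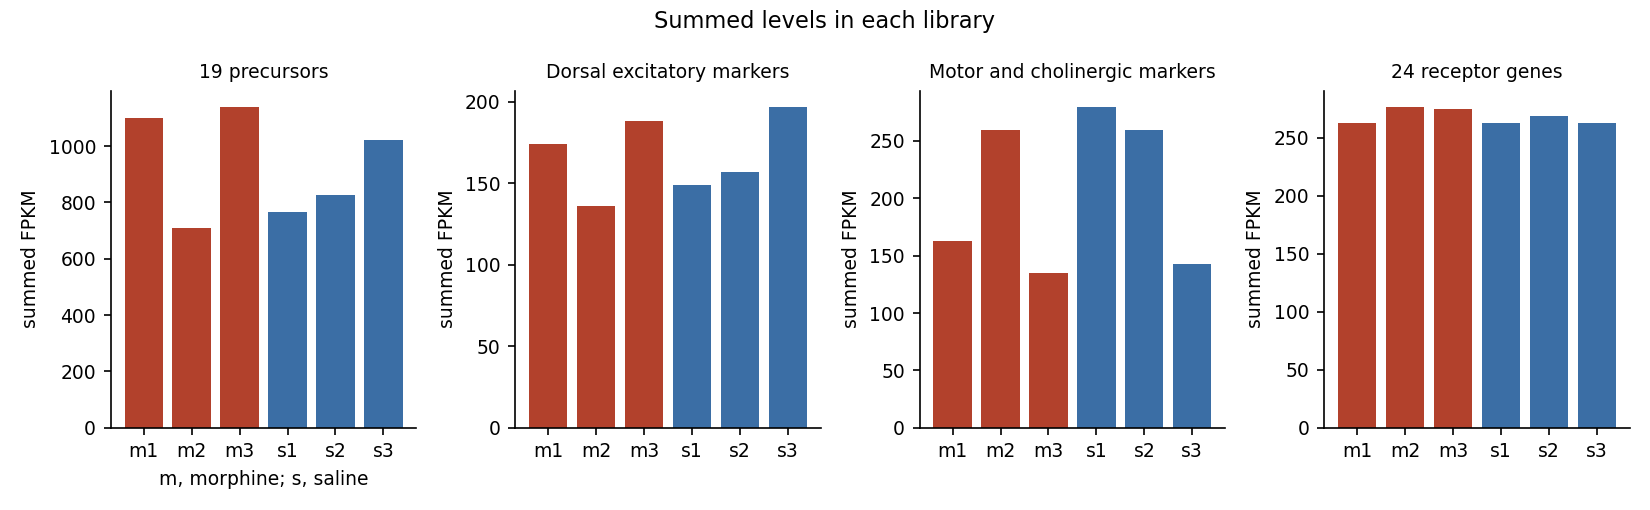
Summed FPKM in each library (m, morphine; s, saline; numbered as in the titles) of the 19 precursors, the dorsal excitatory markers, the motor and cholinergic markers and the 24 receptor genes, with bars from 0. The precursor sums are lowest in m2 at 710 and highest in m3 at 1140, the motor marker sums are lowest in m3 at 135 and highest in s1 at 280, and the receptor sums stay between 263 and 277.

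The rest of the peptide system was read from 5 further lists, which hold few tested genes each. The background was 22.3% of all tested genes at an unadjusted limma p under 0.05, with 0.944% called higher and 0.561% called lower. With so few genes a count of 0 called is near that background. Of 43 further precursors 11 were tested, with 3 at an unadjusted p under 0.05 and 0 called by limma. Apln, which encodes the vascular peptide apelin, was at 13.4 ± 0.85 FPKM in morphine and 16.7 ± 0.614 FPKM in saline (limma adjusted p = 0.0771), and Spx, the spexin precursor, at 1.49 ± 0.102 FPKM in morphine and 0.893 ± 0.289 FPKM in saline (limma adjusted p = 0.157). In saline 1, 2 and 3 Spx was at 0.58, 0.95 and 1.15 FPKM. It passed the filter through the morphine libraries, so no weight is put on its p-value, although the 3 counted above include it. Agt, the angiotensin precursor and the most abundant of the 11, was at 154, 159 and 139 FPKM in morphine, against 126, 139 and 113 FPKM in saline (log2 fold change 0.26, limma adjusted p = 0.157). Calca, the precursor of CGRP and calcitonin and also a motor neuron gene, was at 50.5, 106 and 20.8 FPKM in morphine, against 81.8, 113 and 23.5 FPKM in saline and so was high in the same 3 libraries as the motor markers. Of 52 further receptors 22 were tested, with 2 at an unadjusted limma p under 0.05 and 0 called. Sort1, a sorting receptor that also binds neurotensin, was at 47.2 ± 3.35 FPKM in morphine and 54.6 ± 1.38 FPKM in saline (limma adjusted p = 0.129). Mc4r, a melanocortin receptor, was at 2.35 ± 0.237 FPKM in morphine and 3.10 ± 0.465 FPKM in saline (limma adjusted p = 0.204). Ramp2, an accessory protein like Ramp1, was at 30.9 ± 2.95 FPKM in morphine and 30.4 ± 2.88 FPKM in saline.

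Peptides are trimmed by processing enzymes, stored with granins in dense-core vesicles and degraded by peptidases. Each of these 3 lists was at or below the same background in genes called and in genes at an unadjusted limma p under 0.05. Groups did not overlap in 28.7% of all tested genes, and only the peptidases were above that, with 2 higher and 5 lower of 13. The counts were 2 higher and 1 lower of 14 for processing, and 0 higher and 2 lower of 17 for vesicles and granins. Of 15 genes for processing and amidation 14 were tested, with 3 at an unadjusted limma p under 0.05 and 0 called. Cpe, the carboxypeptidase that trims nearly all neuropeptides, was at 900, 921 and 997 FPKM in morphine, against 746, 803 and 782 FPKM in saline (log2 fold change 0.27, limma adjusted p = 0.0625). Its groups did not overlap, and it did not share the library order of the precursors. The convertase Pcsk4 was at 1.89 ± 0.674 FPKM in morphine and 0.813 ± 0.24 FPKM in saline (limma adjusted p = 0.111). Pcsk4 reached 1 FPKM in the morphine libraries only and passed the filter through them, so no weight is put on its p-value. The counts given for the 14 processing genes include it. Scg5, a partner of a convertase, was at 742 ± 88.7 FPKM in morphine and 661 ± 64.8 FPKM in saline (limma adjusted p = 0.406). All 17 genes of dense-core vesicles and granins were tested, with 2 at an unadjusted limma p under 0.05 and 0 called. Ptprn2, a membrane protein of these vesicles, was at 8.74, 11.4 and 12.7 FPKM in morphine, against 16.1, 16.9 and 21.9 FPKM in saline (log2 fold change -0.69, limma adjusted p = 0.0672). Cadps, which primes the vesicles for release, had a log2 fold change of -0.22 (limma adjusted p = 0.197), and the abundant granins Chga and Scg2 had log2 fold changes of 0.02 and -0.18. Of 17 peptidases that degrade peptides 13 were tested, with 2 at an unadjusted limma p under 0.05 and 0 called. Lnpep, which cleaves oxytocin and vasopressin, was at 0.557 ± 0.129 FPKM in morphine and 1.34 ± 0.18 FPKM in saline (log2 fold change -0.59, limma adjusted p = 0.0613). It reached 1 FPKM in the saline libraries only and passed the filter through them, so no weight is put on its p-value. The counts and the median given for the 13 peptidases include Lnpep. Ide, Ece2 and Npepps, the last of them the most abundant of the 13, had log2 fold changes of -0.20, 0.06 and 0.14. The 13 tested peptidases had a median log2 fold change of -0.14, the lowest of the 5 lists of the peptide system.

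The cell marker lists hold 2 to 10 tested genes each, and limma called 0 in them. Unadjusted limma p-values under 0.05, which 22.3% of all tested genes had, were reached by 0 of 9 tested motor and cholinergic markers, 0 of 10 dorsal excitatory and 2 of 10 inhibitory neuron markers, 0 of 2 primary sensory markers and 0 of 2 markers of cells contacting the central canal. They were reached by 0 of 7 oligodendrocyte, 3 of 7 astrocyte, 1 of 7 microglia, 4 of 7 endothelial and pericyte and 0 of 7 meningeal fibroblast markers, and by 1 of 2 tested markers of choroid plexus, hypothalamus or pituitary. All 7 meningeal markers had a negative log2 fold change, with a median of -0.55, and varied widely within each group, at 51.3, 86.7 and 24.3 FPKM in sum in morphine, against 105, 73.3 and 92.8 FPKM in saline. The smallest adjusted p-values were those of Slc6a5, the glycine transporter of inhibitory neurons, and Pecam1, an endothelial adhesion protein. Slc6a5 was at 37.3 ± 3.84 FPKM in morphine and 55.9 ± 7.32 FPKM in saline (limma adjusted p = 0.0574), and Pecam1 at 3.25 ± 0.581 FPKM in morphine and 5.20 ± 0.101 FPKM in saline (limma adjusted p = 0.0589).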

How the data were processed

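RNA-seq libraries of 3 morphine and 3 saline samples were used. The submitters' processing notes name build mm10 and, as tools, RSEM, STAR, Trimmomatic and bcl2fastq 2.19.0, without other versions or an annotation release. FPKM values of 52513 genes were used as the authors deposited them. Depth was estimated as the value at which low FPKM values of short genes fall on whole fragments: 76.3% to 78.6% did, against 12.7% to 16.9% if spread evenly. Fragment counts and the floor of 3 fragments follow from it and cover counting error only.

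Genes reaching 1 FPKM in 3 or more of 6 libraries were fitted as log2(FPKM + 1) in limma 3.58.1 (R 4.3.3, trend, two-sided, Benjamini-Hochberg, threshold 0.05); members under the filter were read from an unfiltered fit. The script was tested on simulated data. Exact permutation tests were run in R, and plots, fragment counts and sequence searches in Python 3.11.15 with SciPy 1.17.1. Annotation came from GENCODE M21 and RefSeq.

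The members and lists were chosen with earlier results of these data known. Library values are given for members past the threshold, with an unadjusted p under 0.05 or with a mean of at least 3 FPKM, and the other members by means and counts; Vipr2, Rln3, Ucn and Galr1 were added after their values were seen. From the other lists of the peptide system the 2 genes with the smallest p and the 2 with the highest mean are named. Fewer are named from the marker lists, where Scn10a, Scn11a, Calca, Pou4f1, Aldoc, Gfap, Slc6a5 and Pecam1 were picked after their values were seen. The cAMP response element and the windows printed were also chosen late. Alternatives were no filter, a pseudocount of 0.1 FPKM, TPM, quantile normalization, a replicate block, the motor marker covariate, removal of the length trend and leaving out each library.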

Additional observations from a re-analysis of the deposited data

How the results depend on the processing

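The count of genes called was 220 with the settings of the report. It was 8 with no filter on low values, 954 (101 higher, 853 lower) after rescaling to TPM, 102 (47 higher, 55 lower) with quantile normalization, 929 (537 higher, 392 lower) with the motor marker covariate, 29 with the length trend removed, 178 with a pseudocount of 0.1 FPKM, and 1 to 805 with a library left out, the highest without morphine 2. Members called, 1 with the settings of the report, were 0 with no filter, 2 after rescaling to TPM (Cartpt and Adcyap1r1), 0 with the length trend removed, and 0 to 3 with a library left out; without morphine 2 they were Cartpt, Npy and Nmu, and without any other library there were 0. With the replicate number as a block, 24 genes and 0 members were called, and Cartpt had an adjusted p of 0.0521. The same-numbered libraries correlated at -0.13, 0.16 and 0.29 in their deviations from the group means, so the numbers were not taken to pair them. Tested precursors with a positive log2 fold change, 17 in the report, were 11 after rescaling to TPM, 11 with the motor marker covariate and 11 to 16 with a library left out. Tested receptor genes with a negative one, 12 in the report, were 7 to 16 with a library left out. The cause of these shifts was not tested. Cartpt kept its direction in every setting run, between 0.63 and 0.83, and the median of the tested members lay between -0.07 and 0.20. With 3 libraries a group no single-gene permutation test can go below p = 0.1.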
